A study of Arabidopsis thaliana with 12 samples.

Results

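Late embryogenesis abundant (LEA) genes were examined in peak lists from 14-day-old Arabidopsis thaliana Col-0 seedlings, which recorded the histone mark H3K27me3 and the binding sites of the repressors VAL1 and VAL2. The set held 57 of the 27444 protein-coding genes of the 5 nuclear chromosomes. A gene belonged to it when its annotated product or symbol named late embryogenesis abundant, LEA, dehydrin, M10, M17, EM1 or EM6, and genes called LEA hydroxyproline-rich glycoprotein were left out (40 genes). EM6 (AT2G40170, annotated as GEA6) entered through its synonym. The members comprised 9 dehydrins, 2 Em proteins, M10 and M17, 13 genes annotated only as LEA family proteins, 3, 8, 2, 6 and 3 genes of LEA groups 1, 2, 3, 4 and 6, 6 with a root cap domain and 3 others.

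H3K27me3 was profiled by chromatin immunoprecipitation and sequencing in val1val2 double mutants and in wild type, with 2 libraries each. VAL1 was precipitated through a GFP tag in val1 plants (2 lists) and VAL2 through a GFP tag in val2 plants (1 list, and the other replicate was not analysed here). The 12 samples included 4 inputs, 1 for each genotype or tagged line, which entered no comparison of their own. Seeds were kept for 3 days at 4 °C in the dark before sowing, and plants of all groups grew at 22 °C with 16 h of light and 8 h of dark a day. The val1 and val2 alleles, the promoters that drive the GFP fusions and the number of plants pooled are not stated in the labels, and RNA was not analysed here.

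LEA proteins are small, hydrophilic and largely disordered proteins that accumulate in maturing seeds and help cells survive drying. Dehydrins are a class of them that many vegetative tissues also make under drought, cold or abscisic acid (ABA). In seeds, LEA genes are switched on by B3-domain factors such as ABI3 and FUS3, which bind the RY element, together with bZIP factors such as ABI5, which bind the ABA-responsive element (ABRE). VAL1 and VAL2 also carry a B3 domain that recognises the RY element, and repress seed genes after germination. H3K27me3 is deposited by Polycomb repressive complex PRC2 and is found over silenced genes.

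The sequences below are shown because VAL1 summits lay in or beside them at genes whose H3K27me3 was lost, reduced or shortened in val1val2. Capitals mark the RY core (TGCATG or its reverse complement CATGCA) and the ABRE core (ACGTG or CACGT; the G-box CACGTG holds both). All are 5′ to 3′ on the strand of the gene, read from the reference TAIR10.1. The first 4 are the 150 bp before the annotated start of AtLEA4-1 (chr1:11774334-11774483, plus strand), AT4G39130 (chr4:18228855-18229004, minus strand), LEA18 (chr2:14863413-14863562, minus strand) and the dehydrin gene LEA, AT2G21490 (chr2:9207126-9207275, minus strand).
AtLEA4-1: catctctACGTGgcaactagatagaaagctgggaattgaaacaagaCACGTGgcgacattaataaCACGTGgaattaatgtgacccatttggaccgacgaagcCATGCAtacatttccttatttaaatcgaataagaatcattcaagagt
AT4G39130: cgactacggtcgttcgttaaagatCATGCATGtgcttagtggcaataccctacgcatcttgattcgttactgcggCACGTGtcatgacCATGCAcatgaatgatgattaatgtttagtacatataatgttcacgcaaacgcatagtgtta
LEA18: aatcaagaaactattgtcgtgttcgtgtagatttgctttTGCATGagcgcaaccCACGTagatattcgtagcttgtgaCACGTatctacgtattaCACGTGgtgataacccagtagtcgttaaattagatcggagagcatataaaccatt
LEA: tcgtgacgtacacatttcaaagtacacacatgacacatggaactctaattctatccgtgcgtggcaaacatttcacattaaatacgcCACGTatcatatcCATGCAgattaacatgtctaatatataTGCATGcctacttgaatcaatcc

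The next 4 are 30 bp around the RY core nearest to a shared summit. They lie in the 3′ UTR of M17 (chr2:17207515-17207544, plus strand), the 3′ UTR of AtLEA4-1 (chr1:11775188-11775217, plus strand), the 3′ UTR of XERO1 (chr3:18942759-18942788, plus strand) and upstream of AT3G53040 (chr3:19666680-19666709, minus strand).
M17: tatgtttgtaTGCATGCAtagctaattacc
AtLEA4-1: ttttggttattcCATGCActatcttgtatg
XERO1: gcttatggtcgtTGCATGgaataaattata
AT3G53040: aagctctctcgaTGCATGaaaatccCACGT

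H3K27me3 covered most LEA genes in both genotypes. A gene was called marked when merged peaks covered at least 20% of it, from start to end, in both libraries of a genotype. In val1val2 40 of the 57 members were marked, where 30.4% of all genes were, and in wild type 40 were marked, where 25.6% of all genes were. Of these, 35 were marked in all 4 libraries (23.0% of all genes), and 10 members were marked in none. Mean cover over the members was 53.5% and 54.7% in the val1val2 libraries (54.1% ± 0.821, SD, n = 2) and 55.9% and 57.3% in the wild-type libraries (56.6% ± 0.997, SD, n = 2). All genes averaged 23.8% and 24.1% in val1val2 and 20.4% and 20.6% in wild type. The difference over the members, −2.54 percentage points, turned to 0.636 when only peaks with −log10 q of at least 2 were kept, and its direction is therefore uncertain. The median difference over the members was 0, as over all genes. No p accompanies the difference, since 0.333 is the smallest two-sided value that an exact permutation of 4 libraries allows. In whole seedlings, fewer cells with the mark and less mark per cell cannot be told apart.

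Beneath this average, single genes differed in both directions. A gene was called lost when it was marked in both wild-type and in neither val1val2 library, and gained in the reverse case. Loss was called for 5 members (2.03% of all genes) and gain for 3 (6.42% of all genes). Among the 40 members marked in wild type the 5 lost genes were 12.5%, against 7.92% of all marked genes, and the 3 gained genes were among 13 marked in neither wild-type library, where 8.82% of all such genes were gained. Cover was called reduced or raised when both val1val2 libraries lay below or above both wild-type libraries and the means differed by at least 10 percentage points. Cover was reduced in 11 members (5.72% of all genes) and raised in 13 (12.9% of all genes).

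**Figure D1:**
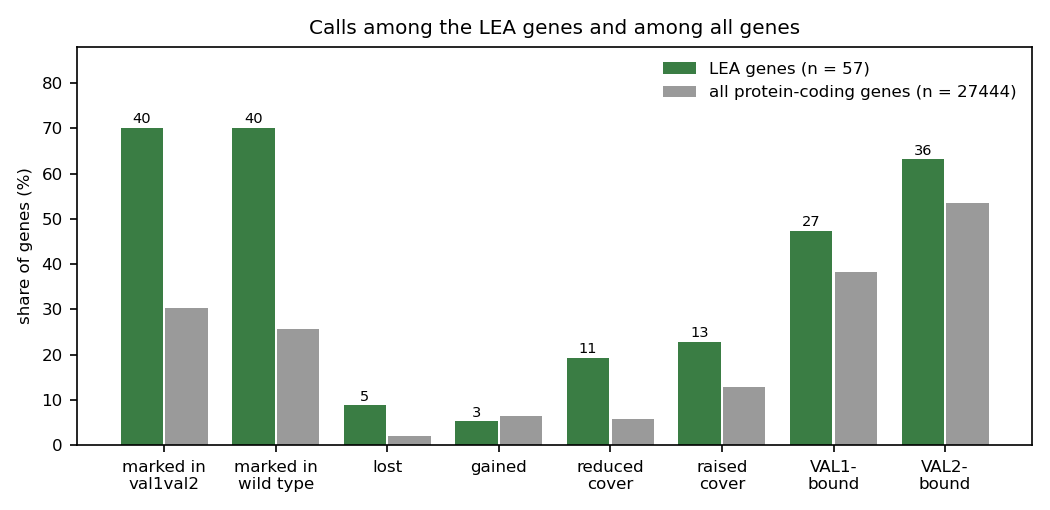
Share of genes (%) with each call among the 57 LEA genes (green, with the number of genes above the bar) and among all 27444 protein-coding genes (grey). The shares marked in val1val2 and in wild type stand highest above those of all genes, and the share gained is the only one below it.

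**Figure D2:**
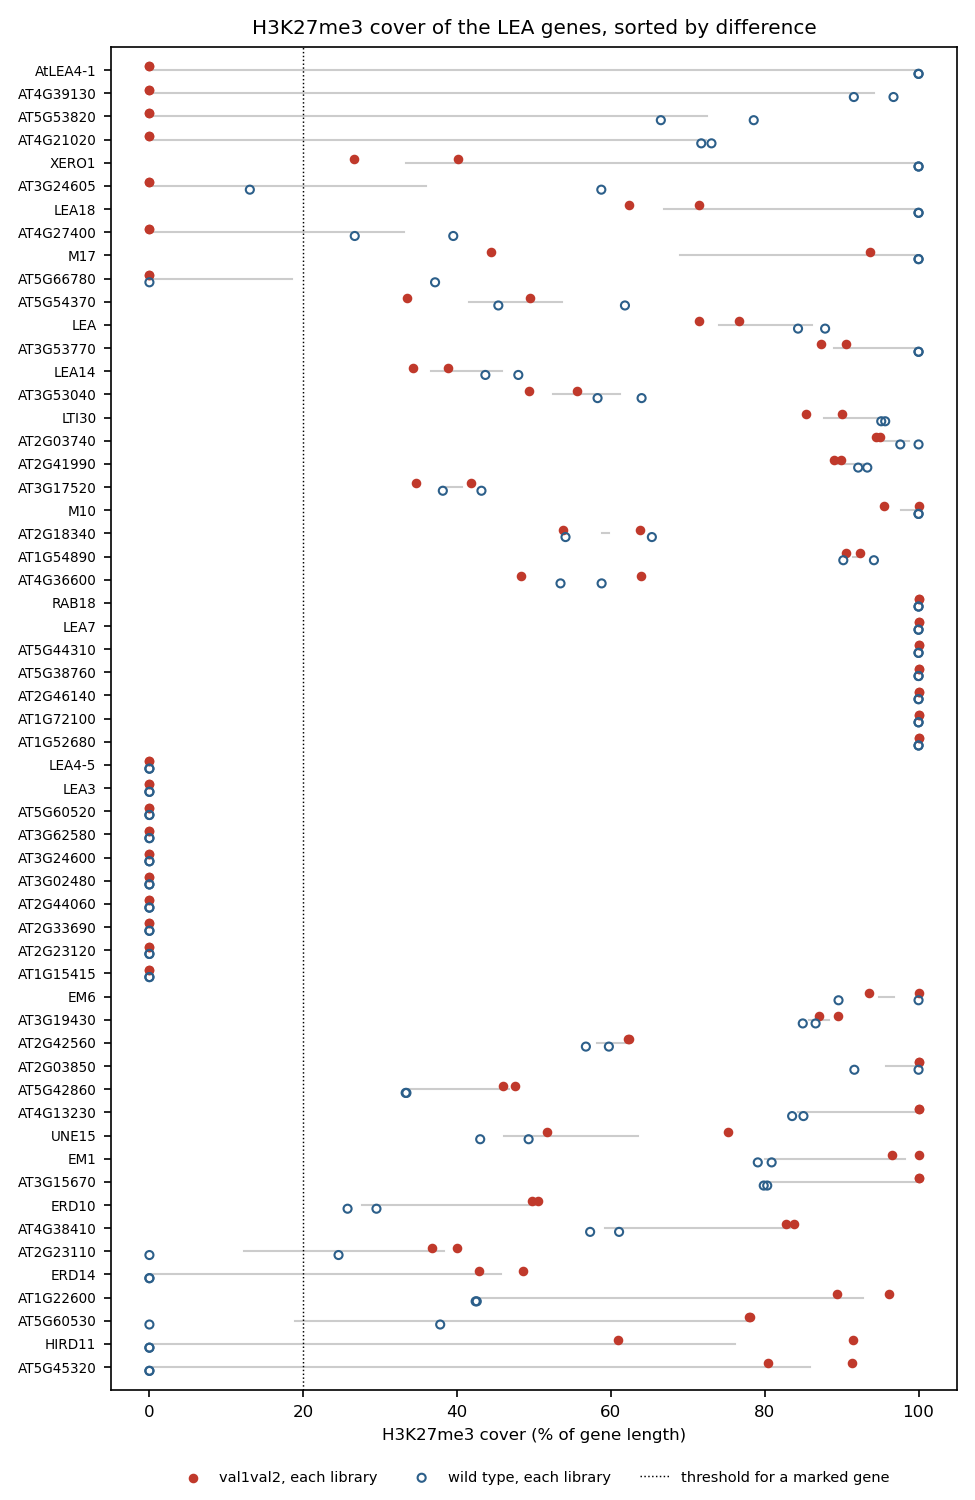
H3K27me3 cover (% of gene length) of each LEA gene in the 2 val1val2 libraries (filled red) and the 2 wild-type libraries (open blue), sorted from the most negative difference at the top, with grey lines joining the means and a dotted line at 20%. AtLEA4-1 and AT4G39130 at the top are at 0 in val1val2 and above 90% in wild type, and AT5G45320 and HIRD11 at the bottom are at 0 in wild type and between 61.0% and 91.4% in val1val2.

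The seed genes that name the set kept the mark when all peaks were counted. M17 (AT2G41260, chr2:17206452-17207698, plus strand), a late-embryo gene, was covered over 44.4% and 93.7% in val1val2 and over 100% in both wild-type libraries, so its cover was called reduced, with val1val2 replicates that lay far apart. The call rested on val1val2 replicate 1, without which the difference was −6.34 percentage points, against −31.0 with it. M10 (AT2G41280), which starts 1998 bp beyond the end of M17, was covered over 95.5% and 100% in val1val2 and 100% in both wild-type libraries. The peaks over M10 had −log10 q of 2.65 and 2.87 in val1val2 and of 14.9 and 5.24 in wild type. Their fold enrichments were 1.63 and 1.62 in val1val2 and 2.09 and 1.69 in wild type. The wild-type peak of replicate 1 also ran over M17, so its values do not describe M10 alone. The peaks over M17 ended 553 and 1167 bp after its start in val1val2, and 4575 and 1748 bp after it in wild type. In val1val2 the peaks thus stopped within M17, while in wild type they ran past its end, in replicate 1 as far as M10.

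The Em genes encode small hydrophilic proteins of dry seeds, and EM6 is required for normal maturation. EM1 (AT3G51810) was covered over 100% and 96.5% in val1val2 and 79.1% and 80.9% in wild type, so its cover was raised. EM6 was covered over 93.5% and 100% in val1val2 and 89.6% and 100% in wild type, which overlap. The peak over EM6 spanned 3740 and 3878 bp in val1val2, and in wild type it spanned 5178 and 5289 bp. Its −log10 q was 8.31 and 7.67 in val1val2 and 14.0 and 12.4 in wild type. The fold enrichment of the same peaks went the other way, with 2.36 and 2.31 in val1val2 and 2.15 and 2.03 in wild type. EM1 carried the strongest H3K27me3 peak among the members in 3 of the 4 libraries, with a fold enrichment of 4.64 in val1val2 replicate 2 and of 4.53 and 4.36 in wild type.

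The 9 dehydrins held both directions of change. AT4G39130 (chr4:18228118-18228854, minus strand) had no peak in val1val2 and was covered over 96.7% and 91.6% in wild type. The wild-type peaks were short and strong, with fold enrichments of 3.49 and 3.53, and the genes to each side, IMPL2 and AT4G39140, had no peak in any library. XERO1 (AT3G50980) was covered over 26.6% and 40.1% in val1val2 and over 100% in both wild-type libraries, and the dehydrin gene LEA (AT2G21490) over 71.4% and 76.7% in val1val2 and 87.9% and 84.3% in wild type. Cover of all 3 genes was reduced, with no overlap between genotypes, though for LEA the difference was −9.42 percentage points without val1val2 replicate 1, below the size needed for the call.

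XERO1 lies 313 bp downstream of LTI30, which encodes a cold-induced dehydrin. In wild type 1 peak ran over both genes, from position 18940690 to 18944562 of chromosome 3 in replicate 1. In val1val2 this domain was split. One peak over LTI30 ended at position 18941487 in replicate 1, and the next began at 18942671, within XERO1. LTI30 itself was covered over 85.3% and 90.0% in val1val2 and 95.1% and 95.7% in wild type, a difference under 10 percentage points.

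Among the other dehydrins, ERD14 and HIRD11 gained the mark. HIRD11 (AT1G54410), a small dehydrin that binds metal ions, was covered over 91.4% and 61.0% in val1val2 and had no peak in wild type. In val1val2 replicate 1 its peak was 3294 bp long and also covered the next gene, AT1G54400, which was marked in all 4 libraries, while in replicate 2 it was 840 bp long. ERD14 (AT1G76180), an acidic dehydrin made early in drought, was covered over 48.5% and 42.9% in val1val2 and had no peak in wild type. Its neighbours on both sides had no peak in any library. The relative ERD10 (AT1G20450) was covered over 49.8% and 50.6% in val1val2 and 25.8% and 29.5% in wild type, and AT4G38410 over 82.7% and 83.8% in val1val2 and 57.3% and 61.1% in wild type. RAB18, an ABA-responsive dehydrin gene, was fully covered in every library.

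Loss was most complete at a group 1 gene. AtLEA4-1 (AT1G32560, chr1:11774484-11775442, plus strand) had no peak in val1val2, while the wild-type peaks spanned its whole length (100% in each library). Those peaks were 1221 and 1069 bp long, with fold enrichments of 3.45 and 3.01, and began within 85 bp of its start, and the genes on both sides had no peak in any library. LEA18 (AT2G35300), of the same group, was covered over 71.5% and 62.3% in val1val2 and over 100% in both wild-type libraries. Its peak was 453 and 395 bp long in val1val2, while the wild-type peaks were 2487 and 2449 bp long. LEA4-5, the third of the group, whose protein protects enzymes from drying in vitro, had no peak in either genotype.

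**Figure D3:**
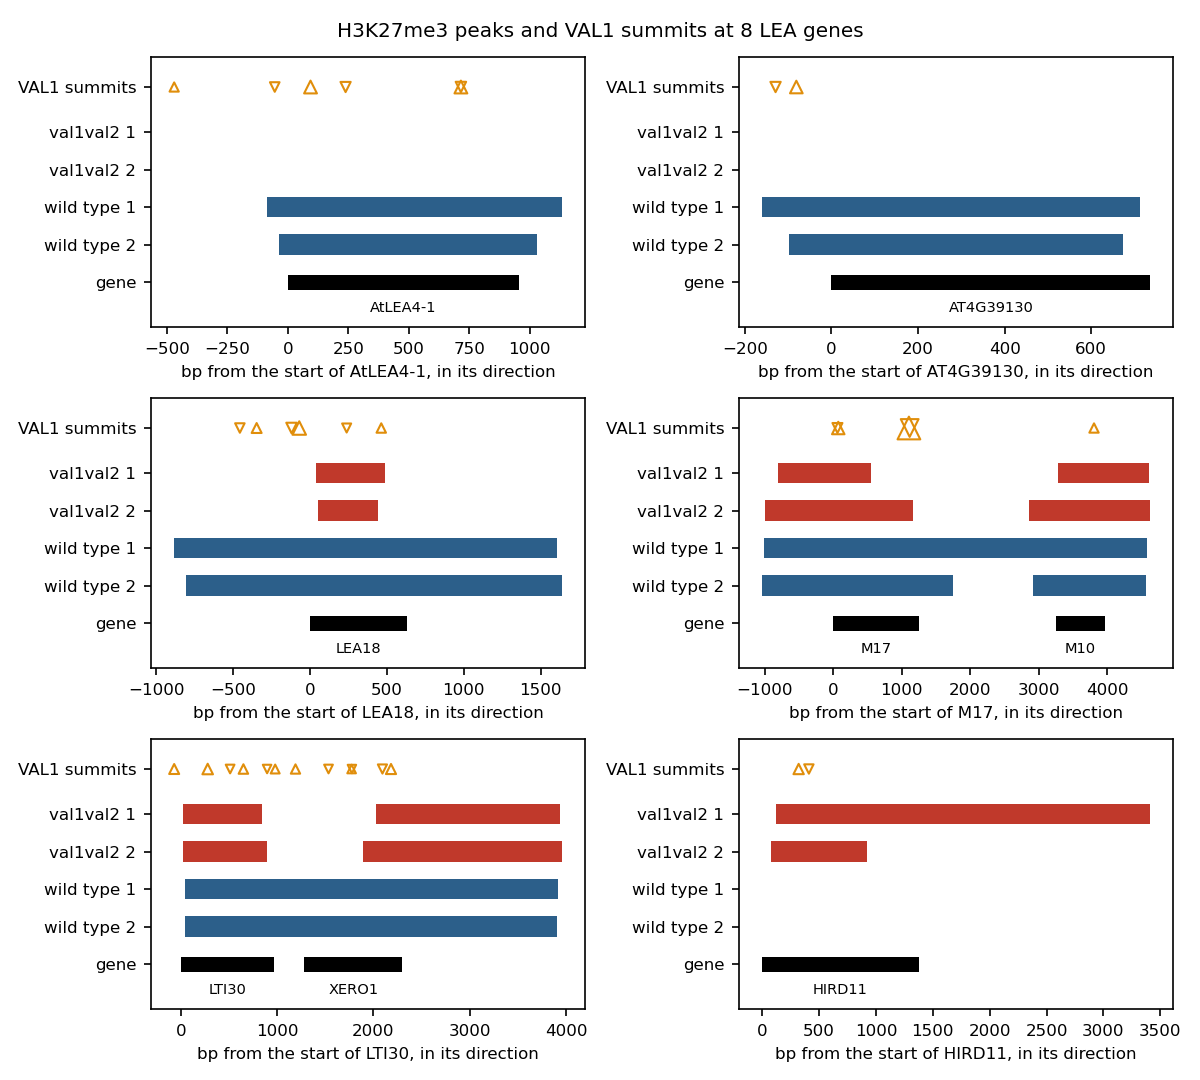
H3K27me3 peaks at 8 LEA genes, drawn in bp from the start of the first gene of each panel and in its direction, for the 2 val1val2 libraries (red) above the 2 wild-type libraries (blue), with the genes in black. Orange triangles are VAL1 summits of replicate 1 (pointing down) and replicate 2 (pointing up), larger where the fold enrichment is higher, and M17 shows the largest, 1115 and 1104 bp from its start.

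The 13 genes annotated only as LEA family proteins included 2 lost and no gained members. AT4G21020 had no peak over it in val1val2 and was covered over 71.7% and 73.1% in wild type, by a peak that began more than 2 kb upstream and also held the neighbour AT4G21010, which stayed fully covered in val1val2. With 1 kb upstream counted in, AT4G21020 was marked in all 4 libraries. AT5G53820 had no peak in val1val2 and was covered over 78.6% and 66.5% in wild type by weak peaks, with −log10 q of 1.96 and 0.609. Cover was raised in 4 genes of this group. The widest difference was at AT1G22600, covered over 89.5% and 96.1% in val1val2 and 42.6% and 42.4% in wild type.
The other 3 raised genes were closer between genotypes. AT3G15670 was fully covered in both val1val2 libraries and over 80.3% and 79.9% in wild type. AT4G13230 was also fully covered in val1val2, against 83.6% and 85.0% in wild type. UNE15, named after a defect of the unfertilised embryo sac, was covered over 51.8% and 75.2% in val1val2 and 49.3% and 43.0% in wild type, and its call ended without val1val2 replicate 2, where the difference was 5.60 percentage points. LEA7, AT5G38760 and AT5G44310 of this group were fully covered in all 4 libraries.

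All 6 members of group 4 were marked in all 4 libraries, and none was reduced or raised. Of the 8 group 2 genes, 4 were marked in all libraries, among them LEA14, which encodes a structured LEA protein and was covered over 34.3% and 38.8% in val1val2 and 43.7% and 48.0% in wild type. AT5G45320 gained the mark, with 91.4% and 80.4% in val1val2 and no peak in wild type, and the next gene downstream, AT5G45310, gained it too. AT5G42860 was covered over 46.0% and 47.5% in val1val2 and 33.4% and 33.3% in wild type, and its peak was stronger in val1val2, with fold enrichments of 4.60 and 4.23 there and of 2.26 and 2.53 in wild type. AT3G24605 had no peak in val1val2, while its wild-type replicates gave 58.8% and 13.1%, so cover was reduced but no loss was called.

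Calls also changed in group 3, group 6 and the root cap domain genes. AT3G53770 of group 3 was covered over 87.3% and 90.6% in val1val2 and over 100% in both wild-type libraries, which was called reduced, though without val1val2 replicate 1 the difference of −9.38 percentage points no longer met the call. AT2G23110 of group 6 was covered over 36.8% and 40.0% in val1val2 and 0% and 24.6% in wild type, which was called raised. The other 2 genes of group 6 had no peak in any library.
Of the root cap domain genes, AT4G27400 was lost, with no peak in val1val2 and 26.7% and 39.5% in wild type. Its wild-type peaks were the weakest behind any loss, with −log10 q of 0.439 and 0.472. AT5G60530 was covered over 77.9% and 78.1% in val1val2 and 0% and 37.8% in wild type, which was called raised, with wild-type replicates that fell on either side of the 20% threshold.

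Few members lay near the 20% threshold. In val1val2 the members just above it were XERO1 at 33.3% and LEA14 at 36.6% mean cover, and all members below it were at 0. In wild type ERD10 at 27.6% and AT4G27400 at 33.1% lay just above it, and AT5G60530 at 18.9% and AT5G66780 at 18.6% just below it. AT5G66780 had no peak in val1val2 and a peak in 1 wild-type library only, over 37.1% of the gene.

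Part of these calls depended on the q threshold. With peaks of −log10 q of at least 2, loss was called for 3 members (2.44% of all genes), AtLEA4-1, AT4G21020 and AT4G39130, and gain for 5 (5.72% of all genes), with ERD10 and AT5G60530 added to the 3 above. With −log10 q of at least 10, the same 3 were lost, and LEA18, XERO1, EM6 and AT3G53770 were also called lost, while none of the 3 gained genes was called gained. Lost members thus numbered 7 (2.99% of all genes), gained members 2 (3.29%), reduced members 9 (3.98%) and raised members 6 (4.54%). Under that setting 19 members were marked in wild type (11.7% of all genes) and 15 in val1val2 (12.0% of all genes).

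Where the mark was kept, its domain often changed in length. The 35 members marked in all 4 libraries were compared by the summed length of the peaks that touch them. A domain that splits thus counts as shorter, as at LTI30. Neighbouring members can count the same peak, as LTI30 with XERO1 in wild type and LEA7 with AT1G52680 do, so members are not separate domains. The peaks were shorter in both val1val2 libraries than in both wild-type libraries at 13 members and longer at 14, among all genes marked in all 4 libraries at 37.8% and 34.2%. As shares of the 35 members these were 37.1% and 40.0%, close to the values of all genes. The largest shortening was at AT3G53040, a group 4 gene, where the peaks summed to 923 and 1038 bp in val1val2 and to 6218 and 6323 bp in wild type. Its own cover differed little, 49.4% and 55.5% in val1val2 and 58.3% and 64.0% in wild type. The wild-type peaks began 5129 and 5127 bp before its start, while those of val1val2 began within the gene. Longer peaks were found at AT1G22600, with 2260 and 2206 bp in val1val2 and 1039 and 988 bp in wild type, and at AT2G03740, with 3928 and 4013 bp in val1val2 and 2937 and 2971 bp in wild type.

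VAL1 and VAL2 were present at many LEA genes, with all summits counted at shares not far above those of all genes. Binding was called from summits in the gene or up to 1 kb before it, for VAL1 only where both lists held one. The summits of the 2 VAL1 lists did not have to lie at the same place. VAL1 bound 27 members (38.2% of all genes), VAL2 36 members (53.4% of all genes) and both 24 members (31.0% of all genes), and 18 had neither. As shares of the 57 members, VAL1 bound 47.4% and VAL2 63.2%. Of the dehydrins 8 of 9 were bound by VAL1 and all 9 by VAL2, and all 3 group 1 genes were bound by both, against 2 of 8 group 2 genes and none of the 2 group 3 genes for VAL1. Many of the summits were weak. With −log10 q of at least 2 the VAL1-bound members numbered 17 of the 57 (15.5% of all genes). With at least 10 they numbered 6 of the 57 (3.32% of all genes), for VAL2 5 (6.80% of all genes). In ratio to all genes, the VAL1 shares at these thresholds were higher than with all summits counted.

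M17 carried the strongest VAL1 summits of the set, with fold enrichments of 10.8 and 18.5 in the 2 lists, and a VAL2 summit with −log10 q of 37.3. They lay 1115 and 1104 bp after its start, in the 3′ UTR, beside the pair of overlapping RY cores printed above, and the val1val2 peak of H3K27me3 ended before this site in replicate 1 and 52 and 63 bp beyond the summits in replicate 2. The dehydrin gene LEA followed, with 5.29 and 11.5 at summits 41 and 42 bp before its start, and AT5G60530, with 4.87 and 8.29 at summits 537 and 515 bp before its start. AT1G72100 (3.62 and 6.08), LEA18 (2.95 and 5.66), AT3G53040 (2.99 and 5.05), AtLEA4-1 (2.85 and 4.97) and AT4G39130 (2.75 and 4.77) completed the 8 members with the highest fold enrichment. At AtLEA4-1 both lists placed a summit at the same base, 716 bp after its start in the 3′ UTR, on the RY core printed above. These fold enrichments are the authors' own values and were higher in list 2 at each of the 8 genes.

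Of these 8 genes, 2 were lost in val1val2 (AtLEA4-1 and AT4G39130), 3 reduced without loss (M17, LEA and LEA18, the calls of M17 and LEA ending without val1val2 replicate 1), 1 raised (AT5G60530) and 2 neither (AT1G72100 and AT3G53040). Among the 40 members marked in wild type, 20 were bound by VAL1 and 20 were not (46.8% of all marked genes were bound). Loss was called for 4 of the bound and 1 of the unbound genes, where all marked genes gave 12.6% of the bound and 3.78% of the unbound. Of the bound lost genes, AT4G21020 and AT4G27400 had no summits of the 2 lists within 100 bp of each other. Neither was bound by VAL1 at −log10 q of at least 2. Reduced cover was called for 8 of the bound and 2 of the unbound genes, where all marked genes gave 30.3% and 11.3%. Raised cover was called for 2 of the bound and 6 of the unbound genes, against 14.7% and 19.5% of all marked genes. Bound and unbound together, cover was reduced in 10 of the 40, against 20.2% of all marked genes. In each case the bound and unbound members stood in the same order as all marked genes, and whether the members differ from those was not tested. The 3 gained genes included 2 bound by both proteins, HIRD11 and ERD14, and 1 bound by neither, AT5G45320. At ERD14 the VAL1 summits of the 2 lists lay more than 100 bp apart.

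**Figure D4:**
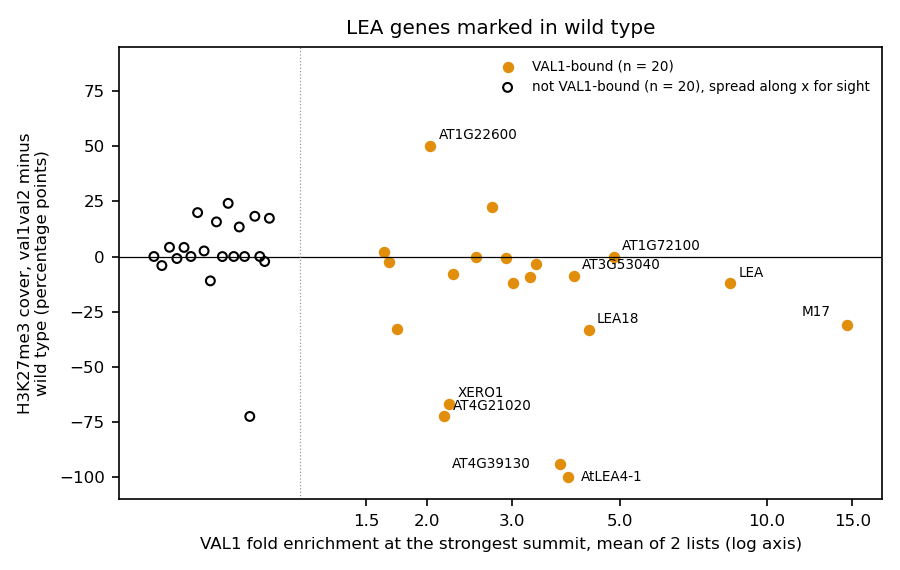
Difference in H3K27me3 cover (val1val2 minus wild type, percentage points) of the 40 LEA genes marked in wild type, against the VAL1 fold enrichment at the strongest summit (mean of the 2 lists, log axis). Orange points are the 20 VAL1-bound genes and open points, left of the dotted line, the 20 others. AtLEA4-1 is the lowest point at −100, AT1G22600 the highest at 50.3, and M17 lies farthest to the right.

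RY cores were common at the VAL1 summits of LEA genes. A summit was called shared when the lists placed summits within 100 bp of each other, which gave 25 shared summits in 19 members. An RY core lay within 100 bp of 16 of the 25 (64%, 95% exact Clopper-Pearson interval 42.5% to 82.0%), against 6 of 50 equally wide windows centred 1 kb away on either side (12%). Over all 10106 shared VAL1 summits the share was 49.1%, inside that interval, with 8.50% in the windows beside them. Of the 12 stronger summits 10 held an RY core, and of the 13 weaker ones 6 did. The strong summits of AT1G72100 and AT5G60530 held none.

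ABRE cores stood beside them. An ABRE core lay within 100 bp of 14 of the 25 shared summits (56%), against 7 of 50 windows beside them (14%) and 33.0% of all shared VAL1 summits. ABRE cores were also found near gene starts without VAL1, counted from 250 bp before to 50 bp after the start. There 15 of the 30 members not bound by VAL1 held an ABRE core, and 20 of the 27 bound members did. Both cores were found at 9 of the 25 summits (36%) and at none of the 50 windows beside them, against 15.9% of all shared summits. The 9 include the summits of AT4G39130, LEA18, LEA and AT3G53040, whose sequences are printed above, and the 3′ UTR summit of AtLEA4-1. At AtLEA4-1 the ABRE core near that summit lies outside the 30 bp printed. The printed promoter of AtLEA4-1 holds both cores but no shared summit. At AT1G72100 4 matches to the ABRE core stood alone. Intervals and shares cover counting only, and summits of 1 gene are not independent.

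**Figure D5:**
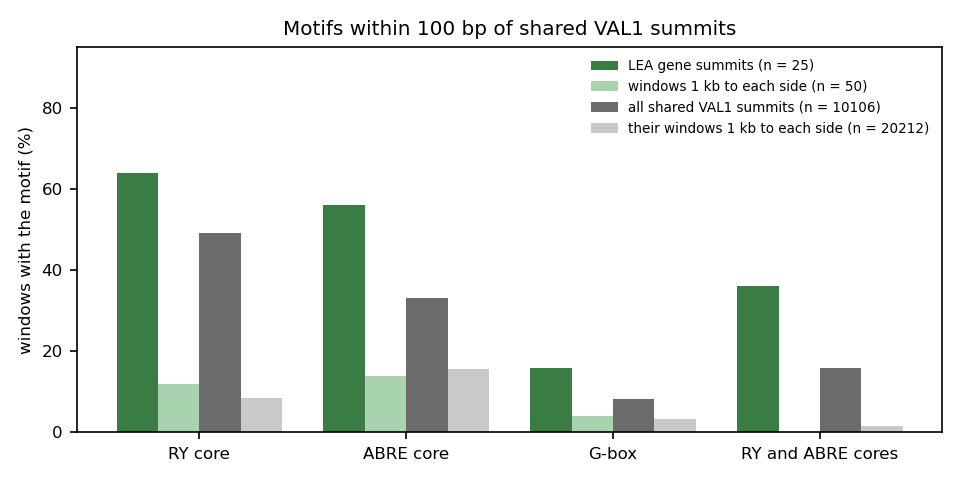
Share of windows (%) of 100 bp to each side of shared VAL1 summits that hold an RY core, an ABRE core, a G-box or both cores, for the 25 summits of LEA genes, windows 1 kb to each side of them, all 10106 shared summits and the windows beside those. The RY bar of the LEA gene summits is the highest at 64%, and both cores together occur at 36% of them.

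The positions of the summits were mixed. Of the 25 shared summits 13 lay upstream of the gene, 7 of them within 250 bp of the start, and 12 within it, with 4 in a 5′ UTR, 4 in a 3′ UTR, 3 in a coding exon and 1 in an intron. Summits upstream of XERO1 and RAB18 also lay in a neighbouring gene (LTI30 and AT5G66410).
In the promoter window, 250 bp before to 50 bp after the start, an ABRE core was found in 35 of the 57 members (61.4%) and in 26.7% of all genes, and a G-box in 22 members (38.6%) and in 7.68% of all genes. An RY core was found there in 7 members (12.3%) and in 9.72% of all genes. Of the 7, 6 were VAL1-bound, and they included AtLEA4-1 and AT4G39130, which holds 3 matches. Both cores stood together in 5 of the member promoters (8.77%), against 2.91% of all promoters. All 5 of these members were VAL1-bound and marked in wild type. How many of all genes with both cores were bound and marked was not computed. Of the 10 members marked in no library 2 had an ABRE core in the promoter, against 29 of the 40 members marked in wild type. The same shares were not computed for all marked and all unmarked genes, so this contrast cannot be called particular to the members. A match is a description of letters and not a site of binding.

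Among the known regulators of LEA genes the mark was mostly absent or kept. Of 16 upstream B3, LEC1-type and bZIP genes, 5 were marked in wild type (25.6% of all genes). None was lost (2.03% of all genes) or gained (6.42%), 1 was reduced (5.72%) and 2 were raised (12.9%). With 16 genes, these counts do not set the regulators apart from all genes. ABI3 was covered over 71.0% and 72.2% in val1val2 and 79.0% and 80.7% in wild type, and FUS3 was fully covered in all 4 libraries. Cover was reduced at BZIP67 (annotated as DPBF2), covered over 26.1% and 17.1% in val1val2 and 37.7% and 39.0% in wild type. It was raised at ABI5, with 18.6% and 23.7% in val1val2 and no peak in wild type, and at ABF1, with 17.8% and 34.0% in val1val2 and no peak in wild type.

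Of 14 other desiccation and seed maturation genes, 7 were marked in wild type (25.6% of all genes) and none was lost (2.03%). The cold-regulated COR15B was the 1 gained (6.42% of all genes), with 65.9% and 67.5% in val1val2 and no peak in wild type. Cover was reduced at 3 (5.72% of all genes), among them PER1, a seed peroxiredoxin gene, with 57.7% and 34.6% in val1val2 and 100% in both wild-type libraries. It was raised at 3 (12.9% of all genes), COR15B, COR15A and AT3G22490. Of the 40 LEA hydroxyproline-rich glycoprotein genes, 24 were marked in val1val2 (30.4% of all genes) and 22 in wild type (25.6%). Loss was called for 2 (2.03% of all genes) and gain for 4 (6.42%). VAL1 bound 47.5% of these genes, against 47.4% of the 57 LEA genes. High shares of marked genes were thus not particular to the 57. An RY core stood in 17.5% and a G-box in 5% of their promoters, against 12.3% and 38.6% for the 57 LEA genes.

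The val1val2 lists were longer than the wild-type lists, with 9925 and 10024 peaks over 19.2 and 19.3 Mb, against 8324 and 8325 peaks over 17.5 and 17.8 Mb. The VAL1 lists held 21580 and 34554 summits and the VAL2 list 30493. Peak lists do not allow a check of the labelled genotypes or tissue from reads. Read depth is unknown, so no floor can be set for a gene with no peak. When each H3K27me3 list was cut to its strongest 8324 peaks, 39 members were marked in val1val2 (28.0% of all genes), 6 were lost (2.78%), 3 gained (5.07%) and 12 reduced (6.19%), and the 5 lost and 3 gained genes above were all among them. Under this cut the 13 raised members were called raised again. Over all genes 10.6% were raised under it, against 12.9% with the full lists. The part of the longer val1val2 lists in the raised calls was not tested beyond this cut.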

How the data were processed

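ChIP-seq peak lists of 7 samples, 4 for H3K27me3 and 3 for GFP-tagged VAL1 or VAL2, were used as deposited. Per the submitters' processing notes the authors used MACS2 and TAIR10, and the notes also name TopHat2 2.1.1, Cufflinks 2.2.1 and Cuffdiff without roles. Which aligner and which MACS2 version and options were used is not given in the sources used here. Each deposited line holds pileup (a coverage signal), fold enrichment (a ratio to local background) and the −log10 of p and of q. Weak peaks are present, and depth is unknown.

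Genes came from the TAIR10.1 annotation, and every peak ended inside its chromosome. Overlapping peaks of a library were merged, and cover, summits and motifs were computed with Python 3.11.15, numpy 2.4.6, pandas 2.3.3 and scipy 1.17.1. The interval steps were tested on simulated data. The lists hold no counts, so calls rest on overlap and no model was fitted. Whether replicates came from separate plants is not given, so their spread may be technical. Members and gene lists were chosen with earlier results of these data known. Named were M10, M17, EM1 and EM6, members called lost, gained, reduced or raised, the 8 with the highest VAL1 fold enrichment and those nearest the 20% threshold; the rest were named as family examples after their values were seen, as were the comparison of peak lengths and the joint count of both cores. Alternatives were other q thresholds, equal list lengths, other cover thresholds and windows, and leaving out each library.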

Additional observations from a re-analysis of the deposited data

How the results depend on the processing

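The 35 members marked in all 4 libraries included the 31 so called at the q threshold of 2, the 34 with equal list lengths, the 24 at a cover threshold of 50% and the 12 at the q threshold of 10. With −log10 q of at least 2, 3 members were lost and 5 gained, VAL1 bound 17, and the mean difference in cover turned to 0.636 percentage points. With at least 10, 19 members were marked in wild type, 15 in val1val2 and 6 raised, VAL1 bound 6 and VAL2 bound 5, and the mean difference was −7.79. With 1 kb upstream added to the gene, 3 were lost (AT4G21020 and AT4G27400 no longer) and 9 were raised (EM1, AT4G13230 and AT5G42860 no longer). With that addition 13 were reduced, LEA and AT3G53770 no longer and AT3G53040, AT5G38760, AT5G44310 and AT5G54370 newly. The mean difference was then −5.38, and AT3G15670, raised over the gene, had a difference of −11.4 percentage points. The cause was not tested. With a cover threshold of 50%, 5 were gained. Leaving out each H3K27me3 library in turn gave 3 to 5 gained members, the 5 without wild type replicate 2 adding AT2G23110 and AT5G60530. It gave 9 to 15 reduced members (M17, LEA and AT3G53770 not called without val1val2 replicate 1) and 12 to 13 raised (UNE15 not called without val1val2 replicate 2). Leaving out VAL1-GFP replicate 2 or 1 gave 28 to 42 bound members. Of 192 single-gene differences under alternatives, 154 moved by less than the spread between replicates, 37 moved further and 1 reversed. Leaving out 1 of 2 replicates always shifts a difference by less than that spread. The values from leaving out a library therefore could not count as moved further and say nothing on steadiness. Widening the set, chosen after seeing the data, to 67 genes by synonyms and domains gave 45 marked in wild type, 5 lost and 4 gained. No paired analysis was possible because the calls come from no test; within replicate numbers 1 and 2 the mean difference was −2.42 and −2.67 percentage points. The unknown depth limits every gene with no peak.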
